A study of Mus musculus with 14 samples.

Results

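Endothelial cells line blood and lymph vessels, and 10 genes that mark them (Kdr, Flt1, Tek, Tie1, Cdh5, Pecam1, Cldn5, Emcn, Egfl7 and Vwf) were followed through mouse fat cell libraries of 3 depots on 2 diets. The genes were chosen by name as known endothelial markers, with earlier results of these data known. Their Ensembl identifiers were found among the 38553 genes of each library by symbol, and all 10 were present. All 10 also reached 0.5 FPKM in at least 3 of the 12 white fat libraries, the filter that left 14959 genes for testing. FPKM, fragments scaled by transcript length and by the size of the library, corrects for length, so levels of different genes can be set side by side.

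The study profiled poly(A) RNA of adipocytes from male C57BL/6 mice that received a high fat diet (HFD) or regular chow (normal diet, ND) for 16 weeks from weaning at 3 weeks of age. There were 3 libraries each of epididymal HFD, epididymal ND, inguinal HFD and inguinal ND adipocytes, and 1 library each of interscapular brown HFD and brown ND adipocytes. Each library pooled fat of 3 to 5 mice, digested with collagenase for 20 min (white depots) or 40 min (brown depot), and the floating layer was taken. The labels name no genetic change or drug in any group. p-values measure the spread between these pooled libraries, not between single mice.

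All 14 libraries carried adipocyte RNA at high levels: Adipoq, the adiponectin gene, ran between 919 and 2536 FPKM. Ucp1, the uncoupling protein of brown fat, stood at 503 FPKM in the brown HFD and 121 FPKM in the brown ND library, against 0.0400 to 36.1 FPKM in the white ones, the highest being inguinal HFD replicate 2. All 10 endothelial markers were above 0 in every library too. Mitochondrial mRNA made 26.9% to 37.0% of coding FPKM in epididymal HFD, 40.3% to 66.7% in epididymal ND, 26.9% to 35.2% in inguinal HFD and 20.6% to 60.7% in inguinal ND libraries. Its share was 82.5% in the brown HFD and 80.7% in the brown ND library. Of the inguinal ND libraries 2 (replicates 0 and 2) stood apart with summed levels of 14 lymphocyte genes of 756 and 1167 FPKM, against 99.8 FPKM in inguinal ND replicate 1 and at most 30.8 FPKM in the other white libraries. The diet results of the markers in inguinal fat are therefore also given without these 2 libraries. That leaves inguinal ND replicate 1 alone in its group. Calls and adjusted p in those fits assume that this lone library varies like those of the other groups. Replicate 1 stood apart in other ways: 12 fibroblast and progenitor genes summed to 2643 FPKM, against 1160 and 992 FPKM in replicates 0 and 2. Its mitochondrial share was 20.6%, against 52.1% and 60.7% in these. In replicate 1, 6 genes of lymph node stroma summed to 107 FPKM, against 16.6 and 13.1 FPKM in replicates 0 and 2. The other white libraries had at most 5.33 FPKM. Its 7 lymphatic genes summed to 46.4 FPKM, against 8.29 and 5.46 FPKM in replicates 0 and 2. Fits without replicates 0 and 2 thus keep the inguinal ND library highest in both lists.

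Fat is densely supplied with capillaries, whose endothelium passes fatty acids and oxygen to the adipocytes. These cells read vascular growth signals through the VEGF receptors (Kdr, Flt1) and the angiopoietin receptor system (Tek, Tie1), hold to each other through Cdh5, Pecam1 and Cldn5, carry the surface glycoprotein Emcn, and secrete Egfl7 and Vwf. Vwf, a blood clotting protein, is typically more abundant in veins and larger vessels than in capillaries, and megakaryocytes and platelets make it too.

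On HFD, 9 of the 10 markers fell in epididymal adipocyte libraries: the ND mean was 6.32 (Egfl7) to 9.49 (Kdr) times the HFD mean. Vwf was not called there. Read against all genes, 7.35% of the 14959 tested were called lower in this comparison (limma, Benjamini-Hochberg adjusted p under 0.05, used for every call here). In inguinal libraries 2 of the 10 were called lower on HFD, Flt1 and Vwf, where the background was 10.2%. That count of 2 was 0 without inguinal HFD replicate 0, 1 without inguinal HFD replicate 1 or 2 or inguinal ND replicate 0 or 2, and 4 without epididymal HFD replicate 0, which enters only the shared estimate of spread. The median difference of the 10 markers was −2.70 on the log2(FPKM + 0.5) scale in epididymal libraries and −0.60 in inguinal libraries, beside 0.07 and −0.01 over all genes tested. After each library was rescaled to its nuclear protein-coding genes, 9 markers were called lower in epididymal fat as well (Kdr −3.36, limma adjusted p = 8.28e-06). These are bulk samples of the floating layer, so fewer endothelial cells in that layer and less RNA per endothelial cell cannot be told apart. How far the layer reflects the vessels of the tissue was not tested.

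**Figure D1:**
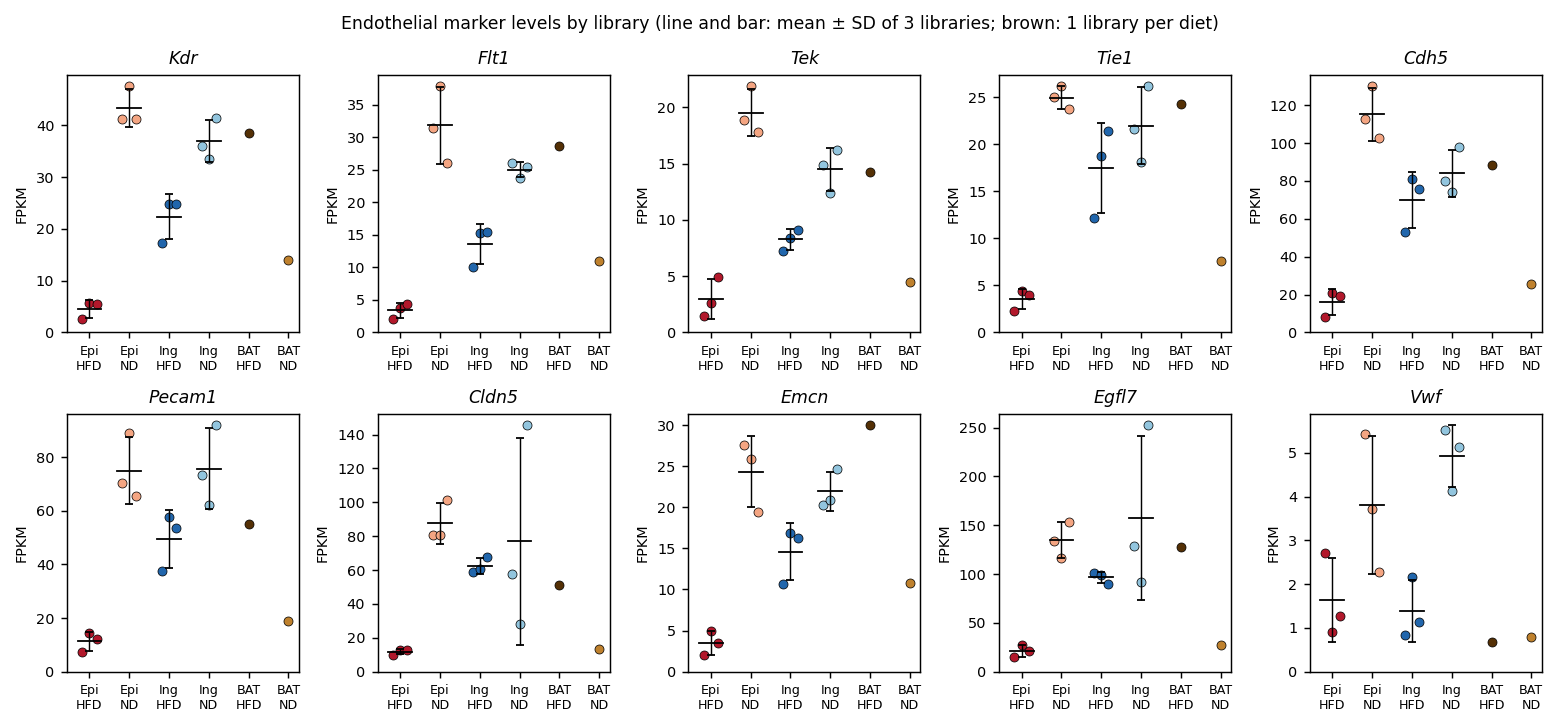
Each panel plots the FPKM of 1 endothelial marker (y axis, from 0) in every library, by depot (Epi, epididymal; Ing, inguinal; BAT, brown) and diet; points are libraries, horizontal lines means and bars SDs of 3 libraries. Except for Vwf, the 3 epididymal HFD points lie below all other white libraries, as for Kdr at 2.54 to 5.70 FPKM.

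Gene positions are those of RefSeq on GRCm38.p6, whose chromosomes are those of mm10. Kdr (ENSMUSG00000062960, chr5:75932827-75979072), the main signalling receptor for VEGF-A, had 2.54, 5.70 and 5.48 FPKM in epididymal HFD libraries, against 41.3, 47.6 and 41.2 FPKM in epididymal ND libraries. In inguinal fat it had 17.3, 24.9 and 24.9 FPKM on HFD and 36.0, 33.5 and 41.5 FPKM on ND. Neither depot's groups overlapped, but the gap was far wider in epididymal fat. The log2 difference, HFD minus ND, was −3.18 ± 0.26 (SE, limma adjusted p = 1.21e-05) in epididymal and −0.73 ± 0.26 (adjusted p = 0.0707) in inguinal libraries. Without epididymal HFD replicate 0 the inguinal difference of Kdr was called (adjusted p = 0.0232).

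Flt1 (ENSMUSG00000029648, chr5:147561604-147726438) encodes VEGFR1, which binds VEGF tightly and in its soluble form acts as a decoy. Its levels were 2.105, 3.72 and 4.33 FPKM in epididymal HFD libraries, against 31.5, 37.9 and 26.1 FPKM in epididymal ND libraries. Inguinal HFD libraries had 10.1, 15.3 and 15.5 FPKM and inguinal ND libraries 26.0, 23.7 and 25.4 FPKM. No HFD library reached the lowest ND library of its depot. Flt1 fell by 3.09 ± 0.25 on the log2 scale in epididymal (limma adjusted p = 1.21e-05) and by 0.88 ± 0.25 in inguinal libraries (adjusted p = 0.0297). That inguinal call was lost when any of 5 libraries was left out. The difference was then −0.68 (adjusted p = 0.113), −0.97 (0.0543) and −0.98 (0.0501) without inguinal HFD replicates 0, 1 and 2, and −0.85 (0.0751) and −0.87 (0.0694) without inguinal ND replicates 0 and 2, so that its size moved little outside the first of these. Without both of the lymphocyte-rich inguinal ND libraries the log2 difference was −0.80 (adjusted p = 0.252). The ratio of Kdr to Flt1 ranged only from 1.21 to 1.72 over the white libraries.

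Tek (ENSMUSG00000006386, chr4:94739086-94874976), the angiopoietin receptor also called Tie2, had 1.43, 2.61 and 4.91 FPKM in epididymal HFD libraries, against 18.9, 21.9 and 17.8 FPKM in epididymal ND libraries. It had 7.25, 8.41 and 9.14 FPKM in inguinal HFD libraries and 14.9, 12.4 and 16.2 FPKM in inguinal ND libraries. Again both pairs of groups were separate. The difference was −2.65 ± 0.30 (log2, limma adjusted p = 0.000113) in epididymal and −0.77 ± 0.30 (adjusted p = 0.0944) in inguinal libraries. The inguinal difference of Tek was called without epididymal HFD replicate 0 (adjusted p = 0.0421) or 2 (0.0352).

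Tie1 (ENSMUSG00000033191, chr4:118471191-118489849), a partner of Tek that binds no angiopoietin strongly by itself, had 2.32, 4.36 and 3.99 FPKM in epididymal HFD libraries, against 25.0, 26.2 and 23.7 FPKM in epididymal ND libraries. The inguinal groups overlapped, with 12.1, 18.8 and 21.5 FPKM on HFD and 21.6, 18.1 and 26.2 FPKM on ND. Tie1 differed by −2.69 ± 0.26 (log2, limma adjusted p = 3.49e-05) in epididymal libraries and by −0.35 ± 0.26 (adjusted p = 0.367) in inguinal libraries.

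Cdh5 (ENSMUSG00000031871, chr8:104101613-104144504), VE-cadherin, the adhesion protein of endothelial junctions, was among the most abundant of the markers. It stood at 8.12, 20.9 and 19.1 FPKM in epididymal HFD libraries, against 113, 130 and 103 FPKM in epididymal ND libraries, a difference of −2.91 ± 0.31 (log2, limma adjusted p = 6.34e-05). In inguinal fat the groups overlapped at 52.9, 81.0 and 75.7 FPKM on HFD and 80.0, 74.0 and 98.1 FPKM on ND (−0.28 ± 0.31, adjusted p = 0.556).

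Pecam1 (ENSMUSG00000020717, chr11:106654213-106715281), the CD31 adhesion molecule that platelets and some leukocytes also carry, had 7.50, 14.3 and 12.2 FPKM in epididymal HFD libraries, against 70.3, 89.1 and 65.4 FPKM in epididymal ND libraries. Inguinal levels were 37.4, 57.7 and 53.5 FPKM on HFD and 73.3, 62.0 and 91.9 FPKM on ND. Both pairs of groups were separate. The log2 difference was −2.71 ± 0.26 (limma adjusted p = 3.49e-05) in epididymal and −0.61 ± 0.26 (adjusted p = 0.115) in inguinal libraries.

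Cldn5 (ENSMUSG00000041378, chr16:18776847-18778262), a tight junction claudin of endothelium, had 9.95, 12.9 and 12.9 FPKM in epididymal HFD libraries, against 80.5, 80.8 and 101 FPKM in epididymal ND libraries (log2 difference −2.83 ± 0.43, limma adjusted p = 0.000692). The 3 inguinal HFD libraries were close together at 58.7, 60.5 and 67.8 FPKM, while the inguinal ND libraries spread from 28.0 FPKM in replicate 1 through 57.7 in replicate 0 to 145 FPKM in replicate 2. The inguinal difference was 0.01 ± 0.43 (adjusted p = 0.991). Against replicate 1 alone, once the 2 lymphocyte-rich ND libraries were left out, Cldn5 was called higher on HFD by 1.14 (adjusted p = 0.0156), which assumes that the lone library varies like those of the other groups.

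Emcn (ENSMUSG00000054690, chr3:137341062-137431069), endomucin, a glycoprotein of capillary and venous endothelium, had 2.00, 4.95 and 3.44 FPKM in epididymal HFD libraries, against 27.6, 25.9 and 19.5 FPKM in epididymal ND libraries. In inguinal libraries it had 10.7, 16.9 and 16.3 FPKM on HFD and 20.3, 20.9 and 24.7 FPKM on ND. The groups did not overlap in either depot. Emcn differed by −2.70 ± 0.28 (log2, limma adjusted p = 5.70e-05) in epididymal and −0.59 ± 0.28 (adjusted p = 0.156) in inguinal libraries.

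Egfl7 (ENSMUSG00000026921, chr2:26581083-26592682), a secreted protein of endothelium whose gene also holds the microRNA miR-126, reached the highest mean of the 10 in all 6 groups. Levels were 15.0, 27.5 and 21.6 FPKM in epididymal HFD libraries, against 134, 117 and 153 FPKM in epididymal ND libraries (log2 difference −2.66 ± 0.32, limma adjusted p = 0.000148). Inguinal HFD libraries had 101, 99.3 and 90.2 FPKM, and inguinal ND libraries 129, 91.8 and 252 FPKM. These inguinal groups overlapped, and the difference was −0.57 ± 0.32 (adjusted p = 0.230). Without inguinal ND replicate 1 it was −0.90 and called (adjusted p = 0.0372), and without the 2 lymphocyte-rich ND libraries 0.074. Mir126a itself is listed at 0 in all 14 libraries of poly(A) RNA.

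Vwf (ENSMUSG00000001930, chr6:125552948-125686679) was the lowest of the 10 in each group and followed another pattern. It had 2.72, 0.910 and 1.26 FPKM in epididymal HFD libraries, against 5.43, 3.72 and 2.28 FPKM in epididymal ND libraries, and these groups overlapped. In inguinal fat they did not: 0.835, 2.17 and 1.14 FPKM on HFD, and 5.51, 4.13 and 5.13 FPKM on ND. The log2 difference was −1.04 ± 0.38 (limma adjusted p = 0.0748) in epididymal libraries and −1.58 ± 0.38 (adjusted p = 0.0134) in inguinal libraries. Without epididymal HFD replicate 0, the library with 2.72 FPKM, the epididymal difference was −1.38 (adjusted p = 0.0374), and without epididymal ND replicate 2 it was −1.32 (adjusted p = 0.0452). The inguinal call was lost without inguinal HFD replicate 0 (−1.36, adjusted p = 0.0546) and without the 2 lymphocyte-rich ND libraries (−1.36, adjusted p = 0.190). Of the 6 platelet and megakaryocyte genes, 3 passed the filter; their list summed to 38.6 to 76.3 FPKM in epididymal HFD, 34.9 to 55.5 in epididymal ND, 10.6 to 30.9 in inguinal HFD and 14.3 to 80.5 FPKM in inguinal ND libraries. Pf4, which macrophages also express, made most of it, at 36.9 to 75.2 FPKM in epididymal HFD libraries. Of the 3 that passed the filter, 1 was called lower on HFD in each depot and 0 higher. In inguinal libraries it was Itga2b (−1.83 ± 0.41, limma adjusted p = 0.0106), the depot and direction in which Vwf was called, and the other 2 were not called. The part of platelet RNA in the Vwf values was not tested.

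**Figure D2:**
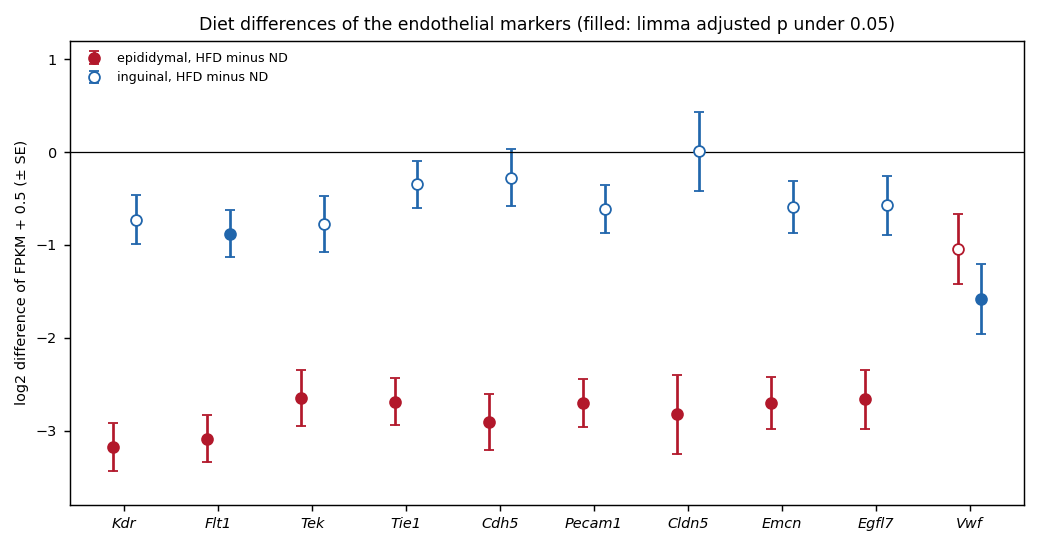
Points give the HFD minus ND difference of each marker on the log2(FPKM + 0.5) scale in epididymal (red) and inguinal (blue) libraries, with SE bars from limma; filled points have an adjusted p under 0.05. The 9 markers other than Vwf lie between −3.18 and −2.65 in epididymal fat and between −0.88 and 0.01 in inguinal fat.

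The FPKM values themselves were also compared library by library. In epididymal fat every HFD library lay below every ND library for 9 of 10 markers, where 16.7% of all genes tested did so. In inguinal fat this held for 6 of 10 (Kdr, Flt1, Pecam1, Tek, Emcn and Vwf), with a background of 17.3%. For all 10 markers the mean deposited FPKM was lower on HFD than on ND in both depots, although in inguinal fat Cdh5, Tie1 and Egfl7 turned to 0.32, 0.23 and 0.023 (log2, none called) when libraries were rescaled to the sum of all non-mitochondrial genes. The inguinal differences were also taken against inguinal ND replicate 1 alone, without the 2 lymphocyte-rich ND libraries. They were −0.59 for Kdr, −0.56 for Tek, −0.09 for Tie1, −0.11 for Cdh5, −0.34 for Pecam1 and −0.53 for Emcn (log2). With a lone ND library these values cannot settle whether the 6 differ by diet. Within the epididymal HFD group, replicate 0 was the lowest for 9 of the 10 markers, and within the inguinal HFD group replicate 0 was the lowest for 9 as well. Among inguinal ND libraries replicate 1 was the lowest for 9 and replicate 2 the highest for 8. Epididymal ND replicate 2 was the lowest of its group for 8.

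The difference between depots in the diet effect was itself tested. The epididymal diet difference was larger in the downward direction than the inguinal one for 9 of 10 markers, by −1.88 ± 0.43 (Tek, adjusted p = 0.0237) to −2.84 ± 0.60 (Cldn5, adjusted p = 0.0179) on the log2 scale (limma interaction), where 2.42% of all genes were called in that direction. Kdr (−2.45 ± 0.37, adjusted p = 0.00479) and Tie1 (−2.34 ± 0.36, adjusted p = 0.00525) had the smallest adjusted p. For Vwf the interaction was 0.54 ± 0.53 (adjusted p = 0.614). The Tek interaction lost its call without epididymal HFD replicate 1 (adjusted p = 0.0644), epididymal ND replicate 0 (0.0515) or 1 (0.0520), and inguinal HFD replicate 1 (0.0549) or 2 (0.0649). Those of Cldn5 and Egfl7 lost theirs without epididymal HFD replicate 0 (adjusted p = 0.0543 and 0.0575). Without the 2 lymphocyte-rich inguinal ND libraries all 9 remained called, at adjusted p up to 0.0496 (Tek). Rescaled to all non-mitochondrial genes, 3 of the 9 were called, although all 9 differences were larger, from −2.25 ± 0.73 (Tek, adjusted p = 0.150) to −3.34 ± 0.68 (Cldn5, adjusted p = 0.0185), with wider errors.

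Set against each other on HFD, epididymal libraries had lower levels than inguinal libraries for 9 of 10 markers (limma, background 3.53%), and for these 9 no epididymal library reached the lowest inguinal one (background 15.2%). The inguinal mean was 2.77 (Tek) to 5.23 (Cldn5) times the epididymal mean. Kdr averaged 4.57 ± 1.77 FPKM in epididymal HFD and 22.4 ± 4.35 FPKM in inguinal HFD libraries (SD, n = 3 each), a log2 difference of −2.22 ± 0.26 (limma adjusted p = 0.000690). Vwf, at 1.63 ± 0.957 FPKM in epididymal HFD and 1.38 ± 0.70 FPKM in inguinal HFD libraries, was not called (0.15 ± 0.38, adjusted p = 0.892). Leaving out any library left these 9 calls in place.

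On ND the depots were not told apart. By limma 0 of the 10 markers were called between epididymal and inguinal ND libraries, and 0 had an unadjusted p under 0.05, where 6.51% of all genes were called in either direction. Kdr averaged 43.4 ± 3.65 FPKM in epididymal and 37.0 ± 4.09 FPKM in inguinal ND libraries (SD, n = 3 each). The median log2 difference of the markers was 0.21, with Cldn5 at 0.49 ± 0.43 and Vwf at −0.39 ± 0.38 as the extremes. Rescaling to the sum of all non-mitochondrial genes, which moved the median of all genes to −1.17, turned 7 of the positive differences negative and called 3 markers lower in epididymal libraries. Flt1, Cdh5 and Tek were higher in every epididymal ND library than in any inguinal one (3 of 10, background 8.82%). Cldn5 was called higher in epididymal ND (1.62, adjusted p = 0.00383) once the 2 lymphocyte-rich inguinal ND libraries were left out. These depot comparisons share their libraries with the diet comparisons and are no separate evidence.

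Summed over the 10, the level was 53.6, 97.8 and 89.1 FPKM in epididymal HFD libraries, against 547, 580 and 553 FPKM in epididymal ND libraries. It was 308, 385 and 376 FPKM in inguinal HFD libraries, against 464, 368 and 727 FPKM in inguinal ND libraries, which overlapped. Egfl7 made up 20.1% to 34.7% of this sum, and Cdh5 made up 13.5% to 22.4% in the white libraries. The shares of Pecam1 and Tie1 were close in the epididymal groups: Pecam1 averaged 14.1% ± 0.478 in epididymal HFD and 13.3% ± 1.83 in epididymal ND libraries, and Tie1 4.42% ± 0.0762 in epididymal HFD and 4.46% ± 0.150 in epididymal ND libraries (SD, n = 3 each). Kdr had a smaller share in epididymal HFD (5.57% ± 0.745) than in epididymal ND libraries (7.74% ± 0.411). Vwf made 5.06% of the sum in epididymal HFD replicate 0, more than in any other library.

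**Figure D3:**
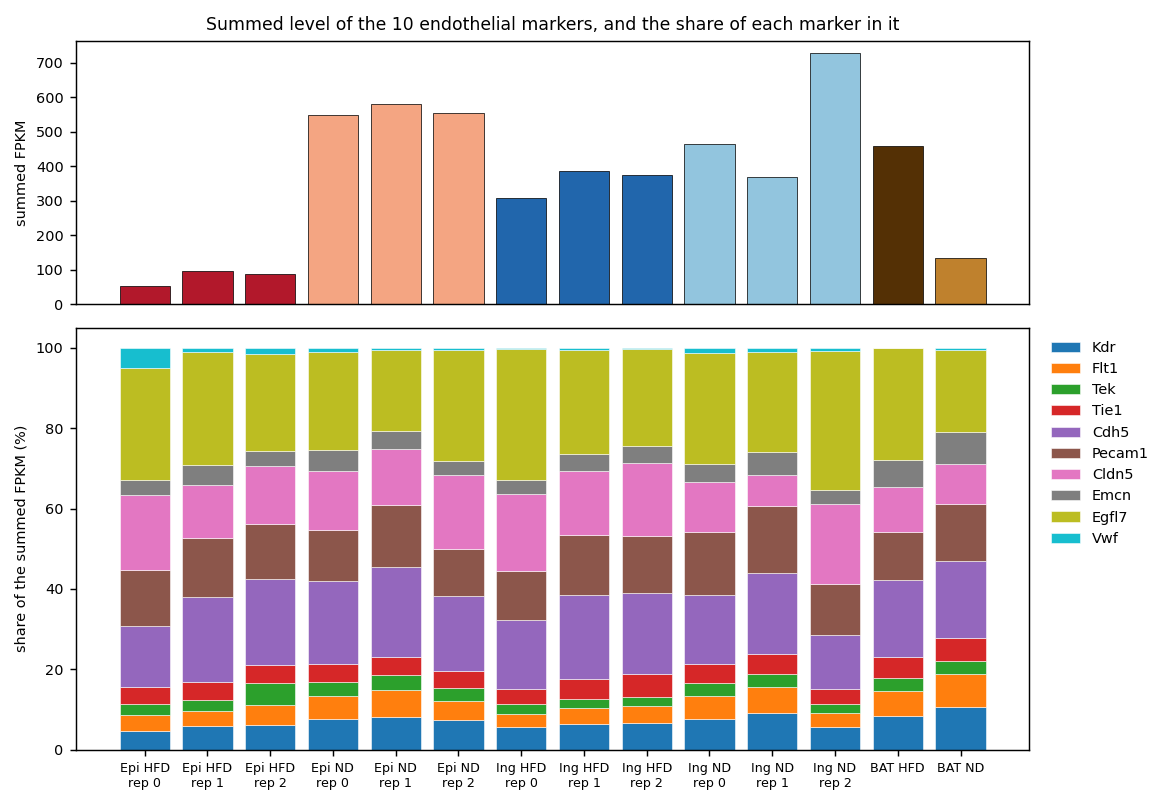
The upper bars give the summed FPKM of the 10 endothelial markers in each library (y axis from 0), and the lower bars split each sum into the share of each marker in percent. The sum ranges from 53.6 FPKM in epididymal HFD replicate 0 to 727 FPKM in inguinal ND replicate 2, while Egfl7 and Cdh5 hold large shares throughout and Vwf a visible one (5.06%) mainly in epididymal HFD replicate 0.

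Over the 12 white libraries, Pearson's r of log2(FPKM + 0.5) between pairs of the 9 markers other than Vwf ranged from 0.867 to 0.993, and that of Vwf with the others from 0.404 (Cldn5) to 0.615 (Flt1). Kdr and Pecam1 were the closest pair. These values describe libraries that share pools, diet and depot. Among 11541 genes with a mean of at least 2 FPKM, the 6 whose levels were most like the mean of the markers were Btnl9 (r = 0.995), Aqp1 (0.993), Arap3 (0.992), Rasip1 (0.992), Fgd5 (0.992) and Podxl (0.991). Aqp1, a water channel of capillaries, averaged 28.7 FPKM in epididymal HFD, 238 in epididymal ND, 130 in inguinal HFD and 183 FPKM in inguinal ND libraries. Btnl9 averaged 2.79 FPKM in epididymal HFD, 39.9 in epididymal ND, 18.1 in inguinal HFD and 33.6 FPKM in inguinal ND libraries.

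Of 30 further endothelial genes, 29 passed the filter, and 26 of them fell on HFD in epididymal libraries and none rose (list median −2.50, all genes 0.07). This list too was chosen with earlier results of these data known. The endothelial transcription factor gene Sox18 averaged 4.53 FPKM in epididymal HFD and 48.2 FPKM in epididymal ND libraries (−3.27 ± 0.28, limma adjusted p = 1.62e-05). Cyyr1 averaged 2.12 FPKM in epididymal HFD and 30.2 FPKM in epididymal ND libraries (−3.57 ± 0.26, adjusted p = 7.16e-06). The 3 that were not called were Cd93, Procr and Nos3. Nos3, the endothelial nitric oxide synthase, averaged 13.7 ± 2.06 FPKM in epididymal HFD and 13.6 ± 1.79 FPKM in epididymal ND libraries (SD, n = 3 each), a log2 difference of 0.00 ± 0.18 (adjusted p = 1.0), and lay between 12.03 and 18.7 FPKM in all 14 libraries. It was singled out after its values were seen.

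In inguinal libraries 8 of these 29 genes fell on HFD and none rose (median −0.58, all genes −0.01). They were Fli1, Eng, Procr, Plvap, Cyyr1, Rasip1, S1pr1 and Thbd. Plvap, which forms the diaphragms of fenestrated and venous endothelium, averaged 6.72 FPKM in inguinal HFD and 32.0 FPKM in inguinal ND libraries (−2.19 ± 0.32, limma adjusted p = 0.00126). Procr, the protein C receptor, differed by −2.45 ± 0.61 (adjusted p = 0.0160), and was not called without inguinal HFD replicate 0 (adjusted p = 0.0535). The count of 8 became 3 without the 2 lymphocyte-rich ND libraries, 3 without inguinal HFD replicate 0 or 1, and 4 and 5 without inguinal ND replicate 0 and 2. It was 4 when only the inguinal groups were fitted and 0 after rescaling to all non-mitochondrial genes. Without the lymphocyte-rich libraries Plvap (−2.44, adjusted p = 0.0138) and Procr (−3.90, adjusted p = 0.00622) were still called. In the interaction, 20 of the 29 were called lower and none higher, and 6 after rescaling to all non-mitochondrial genes.

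The ligands and partners of the receptors showed a mixed picture. Of 15 such genes tested, 9 fell in epididymal libraries on HFD and none rose (median −0.89). Notch4, an endothelial Notch receptor, differed by −2.89 ± 0.18 (limma adjusted p = 3.17e-06), and Angpt1, the activating ligand of Tek, by −2.40 ± 0.28 (adjusted p = 0.000132). Angpt1 had 1.11, 1.16 and 0.993 FPKM in epididymal HFD libraries, against 8.44, 6.69 and 8.60 FPKM in epididymal ND libraries. Vegfa, the main ligand of Kdr, had 84.7, 64.9 and 94.4 FPKM on HFD and 59.8, 94.5 and 110 FPKM on ND in these libraries, groups that overlapped (−0.09 ± 0.28, adjusted p = 0.882). In inguinal libraries 1 of the 15, Apln, the apelin peptide gene, was called, and it rose by 1.55 ± 0.24 (adjusted p = 0.00156). By limma 0 were called lower there, and 1 had an unadjusted p under 0.05 in that direction, Angpt1 (−0.76 ± 0.28, adjusted p = 0.0799), which was called without inguinal HFD replicate 2 (adjusted p = 0.0447) or inguinal ND replicate 2 (0.0352).

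Counts of genes that rose are to be read against the 12.2% of all genes called higher on HFD in epididymal and the 9.3% called higher in inguinal libraries. Genes by which capillaries of fat handle lipid divided in epididymal libraries: 5 of 11 fell and 1, Fabp5, rose (median −0.52). Gpihbp1, which carries lipoprotein lipase to the capillary lumen, had 8.95, 26.8 and 26.7 FPKM in epididymal HFD libraries, against 165, 277 and 199 FPKM in epididymal ND libraries (−3.45 ± 0.39, limma adjusted p = 0.000103). Rbp7, a retinol-binding protein of adipose capillaries, differed by −4.04 ± 0.52 (adjusted p = 0.000250). Fabp5, which macrophages and adipocytes also express, rose by 1.41 ± 0.21 (adjusted p = 0.000693), and lost its call after rescaling to all non-mitochondrial genes (1.47, adjusted p = 0.164). In inguinal libraries Lpl rose (1.37 ± 0.33, adjusted p = 0.0149) and Car4 fell (−1.62 ± 0.31, adjusted p = 0.00433), and the other 9 were not called. Lpl is mainly an adipocyte gene, and its inguinal call was lost without inguinal HFD replicate 1 (adjusted p = 0.0597) or 2 (0.0563), inguinal ND replicate 0 (0.0562), or both lymphocyte-rich ND libraries (0.75, adjusted p = 0.288). Car4 (−1.47, adjusted p = 0.0366) was still called without both, as was Apln (1.62, adjusted p = 0.0179), and Car4 was not after rescaling to all non-mitochondrial genes (−1.04, adjusted p = 0.161).

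Arterial and venous genes both reached calls in epididymal libraries. Of 7 arterial genes 5 fell on HFD (median −1.68), among them Sema3g (−2.39 ± 0.27, limma adjusted p = 0.000117) and the connexin gene Gja4 (−2.12 ± 0.30, adjusted p = 0.000435). Of 6 venous genes 2 fell, Ephb4 (−2.27 ± 0.21, adjusted p = 2.54e-05) and Nr2f2 (−1.67 ± 0.25, adjusted p = 0.000759), and 1 rose, Lrg1 (1.45 ± 0.34, adjusted p = 0.0106). Lrg1 is also expressed by adipocytes and stood at 636 to 923 FPKM in epididymal HFD libraries, far above the endothelial markers, and it lost its call without replicate 0 of that group (1.33, adjusted p = 0.0504). After rescaling to all non-mitochondrial genes the epididymal differences of Gja4 (−1.86, adjusted p = 0.0519), Nr2f2 (−1.497, adjusted p = 0.215) and Lrg1 (1.51, adjusted p = 0.318) were not called. In inguinal libraries limma called 0 of the 7 arterial genes, with 0 at an unadjusted p under 0.05, while 2 of the 6 venous genes fell. These were Ackr1, a chemokine receptor of venules (−2.51 ± 0.52, adjusted p = 0.00717), and Selp, P-selectin (−1.64 ± 0.34, adjusted p = 0.00722). Without the 2 lymphocyte-rich ND libraries Ackr1 remained called (−3.11, adjusted p = 0.0338) and Selp did not (−1.62, adjusted p = 0.0572).

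Junction and basement membrane genes moved both ways. In epididymal libraries 6 of 15 rose on HFD and 5 fell: the junction gene Jam2 differed by −3.38 ± 0.28 (limma adjusted p = 1.35e-05) and Jam3 by −1.94 ± 0.25 (adjusted p = 0.000218), while the basement membrane genes Hspg2 (1.65 ± 0.24, adjusted p = 0.000552) and Col4a2 (1.61 ± 0.35, adjusted p = 0.00639) rose. The calls of Jam3 (−1.72, adjusted p = 0.115), Hspg2 (1.71, adjusted p = 0.0822) and Col4a2 (1.67, adjusted p = 0.152) were lost after rescaling to all non-mitochondrial genes, and that of Jam2 was not. In inguinal libraries 6 of 15 rose, with Col4a2 at 1.71 ± 0.35 (adjusted p = 0.00606), and 1 fell, Jam2 (−1.08 ± 0.28, adjusted p = 0.0198). The inguinal Jam2 call was also lost without inguinal HFD replicate 0 (adjusted p = 0.0778) or 1 (0.0523) and inguinal ND replicate 0 (0.0560) or 2 (0.0530). Adipocytes and fibroblasts make these matrix proteins too. The Col4a2 and Jam2 inguinal calls were lost without the 2 lymphocyte-rich ND libraries (adjusted p = 0.192 and 0.216).

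**Figure D4:**
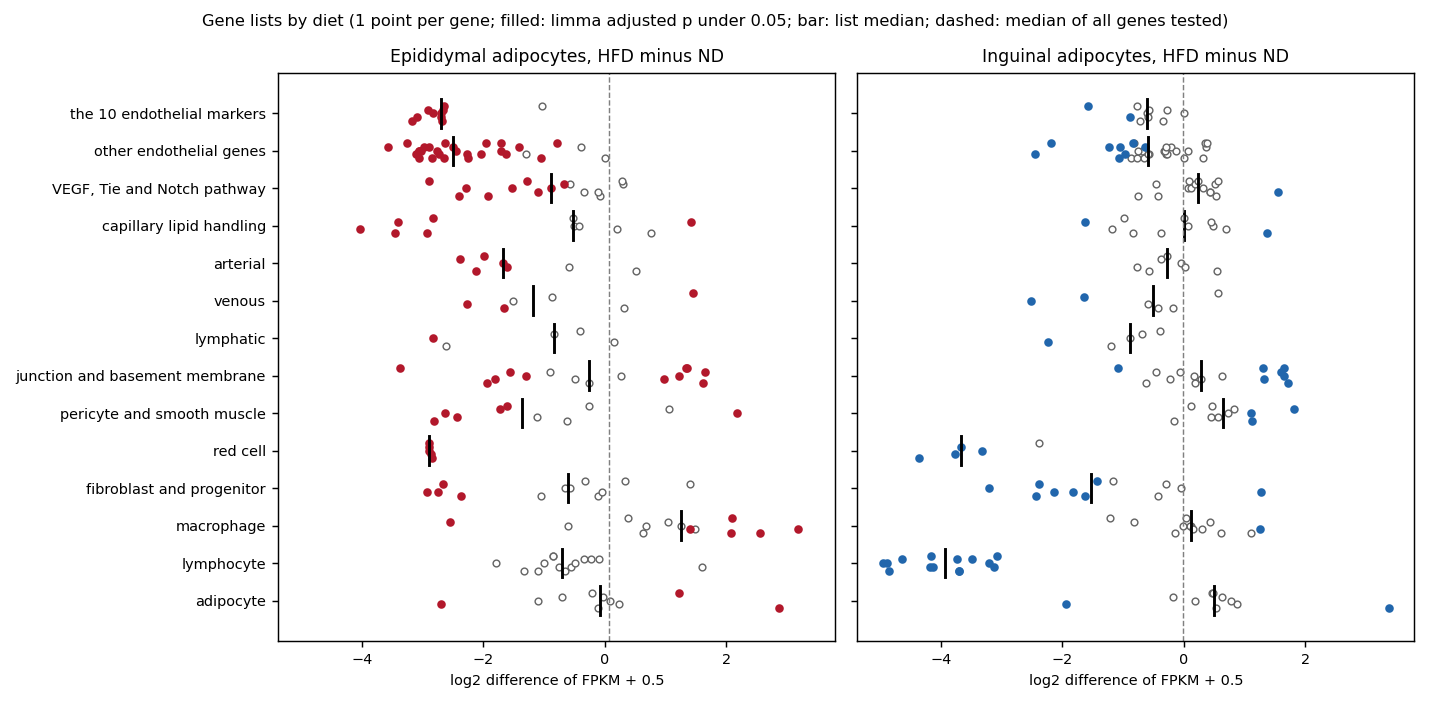
Each point is 1 gene of a list, placed by its HFD minus ND difference on the log2(FPKM + 0.5) scale in epididymal (left) and inguinal (right) libraries; filled points have a limma adjusted p under 0.05, bars mark list medians and the dashed line the median of all genes tested. In epididymal fat the endothelial lists centre at −2.70 and −2.50; in inguinal fat they centre at −0.60 and −0.58 and the lymphocyte list lies farthest to the left, at −3.93.

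Markers of other cells moved with diet beside the endothelial ones, and their part in the endothelial results was not tested. Of 10 pericyte and smooth muscle genes, which mark the cells wrapped around vessels, 5 fell and 1 rose in epididymal libraries (median −1.37). Rgs5, a pericyte marker, averaged 12.2 FPKM in epididymal HFD and 88.2 FPKM in epididymal ND libraries (−2.81 ± 0.26, limma adjusted p = 3.06e-05). In inguinal libraries Rgs5 rose (1.13 ± 0.26, adjusted p = 0.0116), in the opposite direction to the called endothelial markers, and 3 of the 10 pericyte genes rose and none fell. Without the 2 lymphocyte-rich ND libraries Rgs5 was at 0.78 (adjusted p = 0.0656). Summed pericyte genes stood at 111 to 162 FPKM in epididymal HFD, against 159 to 229 FPKM in epididymal ND, and at 167 to 196 FPKM in inguinal HFD, against 43.6 to 140 FPKM in inguinal ND libraries, with none of the 10 at 0. Of 13 macrophage genes 5 rose and 1 fell in epididymal libraries, and the list summed to 1224 to 2192 FPKM on HFD, against 494 to 993 FPKM on ND, with no gene of it at 0. Of 5 red cell genes 5 fell in epididymal and 4 in inguinal libraries: their list summed to 273 to 419 FPKM in epididymal HFD, against 1098 to 3488 FPKM in epididymal ND libraries, and to 63.2 to 150 FPKM in inguinal HFD, against 316 to 4851 FPKM in inguinal ND libraries. All 14 lymphocyte genes fell in inguinal libraries (median −3.93), and in epididymal libraries limma called 0, with 1 higher and 2 lower at an unadjusted p under 0.05. Of 12 fibroblast and progenitor genes 4 fell in epididymal libraries, and 7 fell and 1 rose in inguinal libraries (medians −0.61 and −1.53). Without the 2 lymphocyte-rich ND libraries, the inguinal calls were 5 lower of 11 lymphocyte genes that passed the filter, 7 lower and 0 higher of 12 fibroblast genes, and 0 of 10 pericyte and 0 of 5 red cell genes. Adipocyte genes had a median of −0.07 in epididymal and 0.51 in inguinal libraries. Their list summed to 8372 to 12558 FPKM in epididymal HFD, against 12328 to 20014 FPKM in epididymal ND libraries. In inguinal fat the sums were 8983 to 12749 FPKM on HFD and 10590 to 23964 FPKM on ND.

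In the brown libraries, with 1 per diet and no test, 9 of 10 markers were 2.62 (Flt1) to 4.73 (Egfl7) times higher on HFD than on ND, the opposite direction to epididymal fat. Of all genes tested in the white libraries, 11.3% were at least 2-fold higher in the brown HFD library. Kdr had 38.5 FPKM on HFD and 14.1 FPKM on ND. Cdh5 had 88.1 FPKM on HFD and 25.7 FPKM on ND, and Egfl7 had 128 FPKM on HFD and 27.1 FPKM on ND. Vwf, at 0.685 FPKM on HFD and 0.803 FPKM on ND, was below all 12 white libraries in both, and Emcn, at 29.97 FPKM on HFD, was above all of them. The sum of the 10 markers was 459 FPKM on HFD and 134 FPKM on ND. Other lists differed the same way: 22 of 30 further endothelial genes, 7 of 10 pericyte genes and 9 of 13 macrophage genes were at least 2-fold higher in the brown HFD library, and Ucp1 was 503 FPKM on HFD and 121 FPKM on ND. The summed pericyte genes stood at 163 FPKM on HFD and 58.1 FPKM on ND and the macrophage genes at 180 FPKM on HFD and 33.6 FPKM on ND, while the adipocyte list was lower on HFD, at 8191 FPKM against 22680 FPKM on ND. The part of these other cells in the brown values was not tested. With 1 library per diet, diet and library cannot be told apart.

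Across all 6 groups, 9 of the 10 markers had their lowest mean in epididymal HFD and the next lowest in the brown ND library. This order uses FPKM as deposited and 1 brown library per diet. The brown libraries were digested for 40 min, the white ones for 20 min, so depot and digestion cannot be told apart. Mitochondrial mRNA made 80.7% and 82.5% of coding FPKM in the brown libraries, against 20.6% to 66.7% in the white ones. The brown ND value lay within the range of the epididymal HFD libraries for Tek (4.51 FPKM) and Egfl7 (27.1 FPKM). At the upper end, epididymal ND ranked first for Kdr, Flt1, Cdh5, Tek, Tie1 and Cldn5, inguinal ND for Pecam1, Egfl7 and Vwf, and brown HFD for Emcn. Groups near each other in this order were often not separate: inguinal HFD and inguinal ND overlapped for Cdh5, Tie1, Cldn5 and Egfl7, and epididymal ND and inguinal ND for Kdr, Pecam1, Tie1, Emcn, Cldn5, Egfl7 and Vwf.

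The 250 bases before the annotated starts of the genes were also read for short motifs. Whether the markers share a regulator was not tested. RefSeq windows on GRCm38.p6 were at hand for 7 members (9 windows, 3 of them for Egfl7); Pecam1, Cdh5 and Vwf were not matched. ETS factors, a family that includes the endothelial regulators Erg and Fli1, bind sites around a GGAA core, searched here as CAGGAA and CCGGAA. Either motif, on either strand, occurred in 5 of the 7 members, beside 38.2% of the 27025 gene symbols with a window. CAGGAA was found for Tek, Tie1, Emcn and Egfl7 (28.3% of symbols) and CCGGAA for Kdr (13.6%). The 3 windows that lie wholly outside the annotated span of their gene are shown, on the gene's strand from 5′ to 3′, with these 6 letters or their reverse complements TTCCTG and TTCCGG in capitals. They belong to an angiopoietin receptor partner, a secreted factor and a junction protein that all fell in epididymal fat.
Tie1, chr4:118489850-118490099, minus strand: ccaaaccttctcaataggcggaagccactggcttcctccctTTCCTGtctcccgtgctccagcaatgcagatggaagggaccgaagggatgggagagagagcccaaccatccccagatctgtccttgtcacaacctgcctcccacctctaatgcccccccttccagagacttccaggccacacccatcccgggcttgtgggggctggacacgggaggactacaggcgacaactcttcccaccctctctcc
Egfl7, chr2:26580833-26581082, plus strand: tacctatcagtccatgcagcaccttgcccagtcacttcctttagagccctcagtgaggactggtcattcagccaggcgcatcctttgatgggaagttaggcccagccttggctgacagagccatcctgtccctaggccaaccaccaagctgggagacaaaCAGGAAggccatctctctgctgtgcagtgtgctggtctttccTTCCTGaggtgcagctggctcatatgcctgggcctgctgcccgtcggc
Cldn5, chr16:18776597-18776846, plus strand: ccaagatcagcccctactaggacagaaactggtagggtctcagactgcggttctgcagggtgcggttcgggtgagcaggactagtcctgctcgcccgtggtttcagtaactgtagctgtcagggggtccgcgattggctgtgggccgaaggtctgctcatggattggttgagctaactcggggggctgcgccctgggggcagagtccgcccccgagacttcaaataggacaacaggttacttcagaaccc
In the Tie1 window the motif begins 209 bases before the start. The Egfl7 window holds it 90 and 48 bases before the start, and the first of these is part of the longer AAACAGGAA, which 0.988% of symbols hold. In the Cldn5 window neither set of 6 letters occurs. It holds the GC box GGGCGG on the other strand, printed as its reverse complement ccgccc, 45 bases before the start. On either strand, the windows of 35.4% of symbols hold this motif. A match of letters is no evidence of binding, and a window without a match says nothing about the factor.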

How the data were processed

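Libraries of poly(A) RNA from 12 white and 2 brown adipocyte pools were used. The authors deposited 1 FPKM value per Ensembl gene and library; per the submitters' processing notes the tools were TopHat2 2.0.9 and Cuffdiff 2.1.1 with mm10, but which step each took is not stated. The files hold no read counts, so depth is unknown and no count test, interval or detection limit is given; a value of 0 is only listed at 0. Symbols came from RefSeq GRCm38.p6 tables by Ensembl identifier (36638 of 38553 matched). The 10 members and all gene lists were chosen with earlier results of these data known.

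Values were taken as log2(FPKM + 0.5), which understates changes of low genes. Genes at 0.5 FPKM or more in at least 3 of 12 white libraries entered 1 limma 3.58.1 model (R 4.3.3; trend, 4 group means) with 5 two-sided contrasts: diet in each depot, their difference, and depot on each diet; p-values were Benjamini-Hochberg adjusted over the 14959 genes, with calls under 0.05. Code was tested on simulated data. Named list genes were up to 2 per direction with the largest called difference and a mean of at least 1 FPKM over the white libraries, and further ones were chosen after their values were seen (Nos3, Vegfa and Lyve1 among them).

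Deviations of libraries with the same replicate number from their group means were correlated over genes. For epididymal against inguinal HFD all 3 pairs exceeded 0.1 (0.184, 0.111 and 0.146), a pairing seen in the data and not stated in the labels. For epididymal HFD against ND the pairs stood at 0.180, 0.0825 and 0.1625, with every pair of unequal number below 0. A replicate block left the 9 markers called in both comparisons. Alternatives were other pseudocounts, filters and scalings, array weights, the block, fits of only the groups compared and each library left out. Rescaling to nuclear protein-coding genes and leaving out both lymphocyte-rich libraries were added after seeing the data.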

Additional observations from a re-analysis of the deposited data

Results flagged for a closer look

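The diet effect differed between the epididymal and the inguinal depot for 9 of the 10 endothelial markers by a test of the difference itself (limma interaction, log2 scale, epididymal minus inguinal diet effect). The values were −2.45 for Kdr, −2.21 for Flt1, −1.88 for Tek, −2.34 for Tie1, −2.63 for Cdh5, −2.09 for Pecam1, −2.84 for Cldn5, −2.11 for Emcn and −2.09 for Egfl7, with adjusted p between 0.00479 and 0.0237. The values of pericyte, macrophage, lymphocyte and red cell genes that moved beside them stand with the results, and their part was not tested.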

How the results depend on the processing

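Over 24 alternatives, the 10 markers' values in the 5 comparisons of white fat gave 1121 of 1190 values with the same direction and call, 24 that lost and 16 that gained the call, and 29 that changed sign, none of these called in the original fit. Leaving out 1 library gave 9 to 10 markers called for diet in epididymal fat, 0 to 4 for diet in inguinal fat, 7 to 9 for the interaction, 9 between depots on HFD and 0 on ND; the genes called ranged over 1786 to 3669, 1654 to 4627, 430 to 2541, 767 to 2150 and 251 to 2988. Rescaling to all non-mitochondrial genes, a sum made mostly of short non-coding features, moved the median of all genes to −1.59 (HFD) and −1.17 (ND) between depots and 0.50 for inguinal diet. It called 560 of originally 2918 genes for epididymal diet, 1276 of 2914 for inguinal diet, 213 of 1080 in the interaction, 11049 against 1587 between depots on HFD and 6040 against 974 on ND, and 0, 3 and 3 markers for inguinal diet, interaction and ND. Array weights called 5110, 4612, 2836, 3681 and 2098 genes in these comparisons. Fits of only the groups compared called 713 (inguinal diet, 1 marker), 2993 (HFD) and 14 genes (ND), with fewer samples. Higher against lower calls shifted from the original 1818 and 1100 to 1388 and 1587 (epididymal diet), 718 and 362 to 549 and 607 (interaction) and 1059 and 528 to 652 and 908 (depots on HFD) after nuclear protein-coding rescaling. With quantile normalization they were 572 and 603 in the interaction, and 687 and 621 on ND against originally 353 and 621. With TMM factors they were 657 and 515 in the interaction. The non-mitochondrial rescaling gave 757 and 519 for inguinal diet, originally 1391 and 1523, and 53 and 10996 between depots on HFD. No filter called 695 (interaction) and 577 (ND). Without both lymphocyte-rich inguinal ND libraries 904 (inguinal diet), 2593 (HFD) and 493 genes (ND) were called, and 1 marker each for inguinal diet and ND. Quantile normalization called 4 markers for inguinal diet.

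Signs changed under the non-mitochondrial rescaling between depots on ND for Kdr (−1.09), Flt1 (−0.99), Cdh5 (−0.88), Tek (−0.88), Tie1 (−1.12), Emcn (−1.17) and Cldn5 (−0.84), on HFD for Vwf (−1.21) and for inguinal diet for Cdh5 (0.32), Tie1 (0.23) and Egfl7 (0.023). Cldn5 for inguinal diet was −0.20 with quantile normalization and −0.047 after nuclear rescaling, and −0.55 to 0.62 with 1 library left out. Egfl7 without the lymphocyte-rich libraries was 0.074 (inguinal diet) and 0.54 (ND). Pecam1 on ND was 0.032 with TMM factors, 0.14 with array weights and 0.26 without the lymphocyte-rich libraries. Vwf on HFD was −0.014 after nuclear rescaling. With 1 library left out, Vwf on HFD ran from −0.19 to 0.43, and on ND Pecam1 ran from −0.14 to 0.14, Cldn5 from −0.075 to 1.10 and Egfl7 from −0.43 to 0.30. The cause was not tested.

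A replicate block called 9, 3, 9, 9 and 0 markers and 3404, 3453, 1152, 1777 and 1085 genes in the 5 comparisons; it added Kdr for inguinal diet (adjusted p = 0.0356) and changed no other marker's call. Outside the HFD comparison, pairs of equal number correlated at 0.007 to 0.272, so the numbers give no pairing there. Depth is unknown, which limits what low values such as those of Vwf can show.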

Other observations

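Of 7 lymphatic endothelial genes 5 passed the filter, and 1 was called lower on HFD in each depot by limma, Ccl21a in epididymal (−2.83 ± 0.89, adjusted p = 0.0427) and Pdpn in inguinal libraries (−2.24 ± 0.60, adjusted p = 0.0220). Lyve1, the hyaluronan receptor of lymphatic endothelium and of some macrophages, had 0.632, 1.83 and 0.585 FPKM in epididymal HFD libraries, against 11.05, 18.6 and 2.52 FPKM in epididymal ND libraries. Its difference was −2.62 ± 0.96 (limma adjusted p = 0.0766), and it was called lower without epididymal ND replicate 2 (−3.39, adjusted p = 0.0422), inguinal ND replicate 1 (0.0102) or inguinal ND replicate 2 (0.0331), of which the inguinal ones enter only the estimate of spread. Ccl21a, a lymphatic chemokine gene, had 0.443, 0.377 and 0 FPKM on HFD, against 12.1, 12.3 and 0.432 FPKM on ND. Epididymal ND replicate 2 was the lowest library of its group for both. The Ccl21a call was lost in 8 of the fits that left out 1 library, at adjusted p up to 0.161. The Pdpn call was lost without inguinal HFD replicate 0 (adjusted p = 0.0586) or 2 (0.0785). Against inguinal ND replicate 1 alone, without both lymphocyte-rich libraries, the Pdpn difference was −3.72. That library had the highest sum of the 7 lymphatic genes in its group, 46.4 FPKM, against 8.29 and 5.46 FPKM in replicates 0 and 2. The value therefore cannot show whether the call holds.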
